A study of Bos indicus and Bos taurus with 17 samples.

Results

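Nuclear hormone receptors are transcription factors that are switched by small lipid-soluble molecules. Oestrogens, glucocorticoids, thyroid hormone, vitamin D, retinoids and fatty acid derivatives each have their own receptor, and several of these receptors bind DNA only together with a retinoid X receptor. In the mammary gland, glucocorticoids and thyroid hormone act with prolactin to sustain milk secretion, oestrogen drives duct growth, and the peroxisome proliferator-activated receptors (PPARs) take part in lipid metabolism. Immune cells, which are also present in milk, carry many of the same receptors.

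The levels of 10 nuclear receptor genes were examined, namely ESR1, NR3C1, VDR, PPARG, PPARA, PPARD, RXRA, RARA, THRA and ESRRA. They were picked by gene symbol, and all 10 were found under their own symbol among 21631 distinct names in the table. Milk was collected from Kashmiri and Jersey cattle, with no treatment named in the labels, at day 15 (D15, March), day 90 (D90, July) and day 250 (D250, December) of lactation, and cells were captured from it with beads carrying an antibody against cytokeratin 18. The labels listed 17 samples, with 2 for Jersey D90 and 3 for each of the other groups, from cows in lactation number 2 or 3. All samples of Kashmiri D90 and Jersey D250 were labelled lactation number 2, and every other group held both numbers. Lactation number was thus not balanced over the groups. The paper, by contrast, describes all cows as being in lactation number 3. Day and month changed together, so stage of lactation and season cannot be told apart. The deposited values were FPKM, that is, sequenced fragments divided by transcript length and library size, and Cuffdiff had pooled the cows so that each breed had 1 value on each day. There was no value per cow, so no error, interval or test could be given here. Every difference below is between pooled values of which 1 cow could carry any. The paper reports its own Cuffdiff tests between days and breeds, which could not be repeated. The depth behind a value is unknown.

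The markers of other cell types were checked first, because leucocytes express several of the receptors. All 12 epithelial markers were found, and at D15, D90 and D250 they summed to 5899, 718 and 2611 FPKM in the Kashmiri cells and to 2711, 100.5 and 1395 FPKM in the Jersey cells. The 9 of 12 neutrophil markers that were found summed to 292, 536 and 675 FPKM in Kashmiri and to 4837, 5411 and 13868 FPKM in Jersey. All 12 macrophage markers were found, with sums of 220, 977 and 945 FPKM in Kashmiri and 3264, 5476 and 4600 FPKM in Jersey. The sum of all 12 T and NK cell markers was 1719 FPKM in Kashmiri D90 and between 181 and 425 FPKM in the other groups. The sums of all 8 B cell markers lay between 9.85 and 80.4 FPKM, the highest in Kashmiri D90, and none of the 4 red blood cell markers found reached 1 FPKM. KRT18, the antigen used for the capture, was measured at 51.3, 9.13 and 11.5 FPKM in Kashmiri and at 33.7, 1.59 and 4.51 FPKM in Jersey, whereas CSN2, which encodes beta-casein, was listed at 0 in every group but Jersey D90. In a table of FPKM an exact 0 can also be a failed estimate. The paper lists CSN2 among its most highly expressed genes in every group, so no level was read from these zeros. LSP1 and ITGB2, expressed by leucocytes, reached 334 and 179 FPKM at most. Neutrophil markers thus summed to more than epithelial markers in all 3 Jersey groups, and in Kashmiri D90 the macrophage markers summed to 1.36 times and the T and NK cell markers to 2.39 times the epithelial sum. These sums go against a label of purely epithelial cells for those 4 groups. Leucocyte markers were also measured in the other groups. The neutrophil and macrophage sums were 0.050 and 0.037 times the epithelial sum in Kashmiri D15, and 0.26 and 0.36 times in Kashmiri D250. Sums over different genes do not give shares of cells. The 5 milk protein genes found were each listed at 0 in some groups. As listed, they summed to 8174, 12933 and 13031 FPKM in Kashmiri and to 1817, 5044 and 5140 FPKM in Jersey. The paper reports far higher FPKM for milk protein genes in every group, with caseins higher in Jersey. These sums are therefore not read as milk protein levels. For D90, the paper reported by qPCR more KRT18 and CSN2, and less LSP1, HBA and CD18, in captured cells than in all milk cells. In such mixed samples, fewer cells of a type and less RNA per cell cannot be told apart.

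Most of the receptors were expressed throughout. ESR1 was under 1 FPKM in 4 of the 6 groups, namely D15 and D90 of both breeds, and PPARG was under 1 FPKM in Kashmiri D15. The other 8 receptors were at 1 FPKM or above in every group, and with a limit of 0.5 FPKM in place of 1 the same values fell below it. By mean FPKM over the groups, which is scaled to gene length, RXRA (50.0), PPARD (47.5), RARA (45.1) and ESRRA (41.6) stood highest, followed by VDR (27.9), NR3C1 (14.7), THRA (7.39), PPARG (6.21), PPARA (4.24) and ESR1 (1.54). Without replicates, no neighbours in this order can be separated. In FPKM as deposited, NR3C1, VDR, PPARD, RXRA, RARA and ESRRA had their highest value in Jersey D250. VDR, PPARA, PPARD, RXRA and RARA had their lowest in Kashmiri D90. The share of all names with their highest or lowest value in these groups was not counted. The 10 levels summed to 145, 85.3 and 137 FPKM in Kashmiri and to 226, 275 and 608 FPKM in Jersey at D15, D90 and D250.

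**Figure D1:**
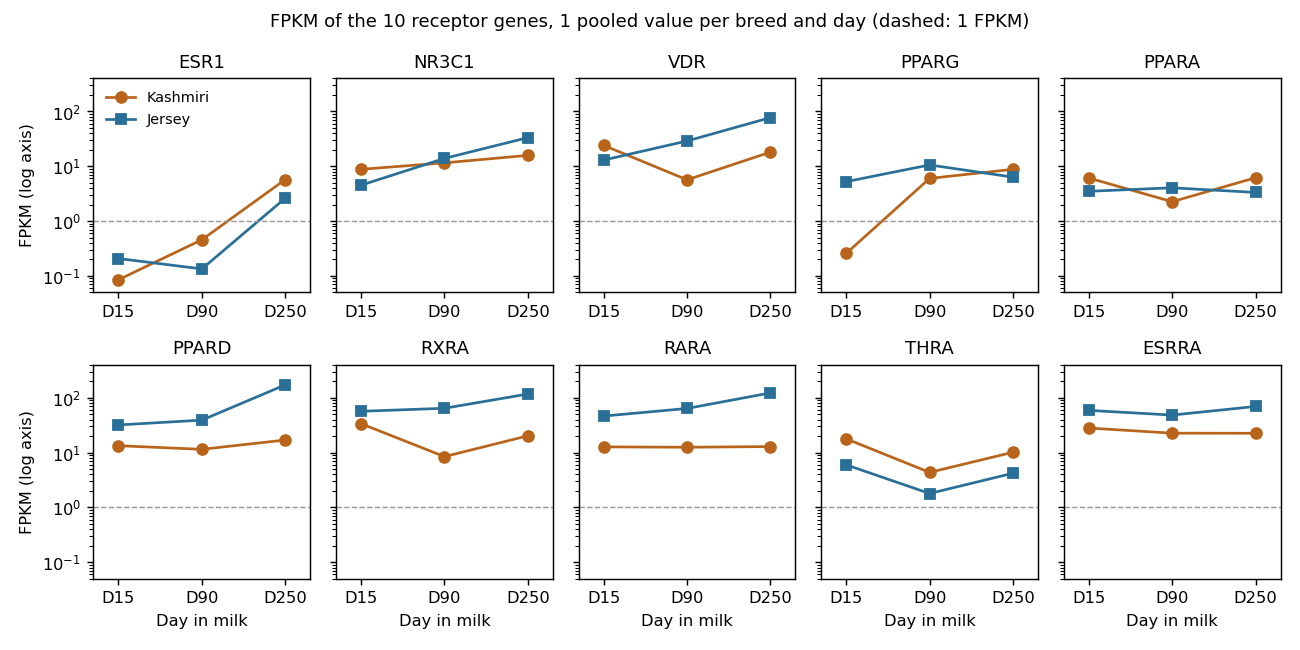
FPKM of each receptor gene (log axis) against day in milk, with Kashmiri as circles and Jersey as squares, 1 pooled value per point and a dashed line at 1 FPKM. ESR1 is above the line only at D250, PPARG is below it only in Kashmiri D15, and the Jersey line lies above the Kashmiri line on every day for PPARD, RXRA, RARA and ESRRA.

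For comparisons, a gene was taken as past the limit when the log2 ratio of its values, each with a pseudocount of 1 FPKM added, was 2 or more in size and at least 1 of the values reached 1 FPKM. The same count over all gene names gave the background. Ratios quoted for single receptors carry no pseudocount. As alternatives, FPKM were rescaled so that the groups shared the same upper quartile, or the same sum without milk protein genes.

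Among the steroid receptors, ESR1 (oestrogen receptor alpha) differed most between days. Its levels in Kashmiri at D15, D90 and D250 were 0.0854, 0.458 and 5.74 FPKM, and those in Jersey were 0.208, 0.135 and 2.63 FPKM. Both D250 values were above all 4 values of the earlier days. ESR1 was 12.5-fold higher at D250 than at D90 in Kashmiri and 19.5-fold higher in Jersey, ratios whose lower value is under 1 FPKM. It passed the limit in Kashmiri D250 over D90 and D250 over D15. With a pseudocount of 0.1 it also passed it in Jersey, for D250 over D90 and over D15. By its own test, the paper lists ESR1 in Kashmiri, D15 against D250, among the differentially expressed genes with the highest fold changes. The Pearson r of ESR1 over the 6 groups was between -0.21 and 0.10 with the epithelial and leucocyte marker lists, and 0.27 with the red blood cell list, whose genes were all under 1 FPKM. The named gene most like it was INVS (r = 0.97), followed by RPS6KA3 (0.96) and CRISP3 (0.94), a secreted cysteine-rich protein measured at 5.11, 16.4 and 92.7 FPKM in Kashmiri and 5.81, 2.09 and 47.8 FPKM in Jersey. All such correlations were over 6 pooled values of log2(FPKM + 1), share the same libraries, and are descriptions only.

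Of 8 genes that oestrogen receptor is known to act on or with, 7 were found, and none passed the limit between days in either breed. GREB1, a classical oestrogen target, had at most 0.277 FPKM, and GATA3, a luminal transcription factor, was measured at 17.5, 9.80 and 7.73 FPKM in Kashmiri and 4.99, 0.770 and 3.19 FPKM in Jersey. ESR2 was near 0 in every group, with at most 0.0303 FPKM, and the progesterone receptor PGR was not found by name.

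NR3C1, the glucocorticoid receptor, was measured at 8.81, 11.6 and 15.8 FPKM in Kashmiri and at 4.52, 13.9 and 33.4 FPKM in Jersey. In both breeds its level was higher at each later day, and the difference between D15 and D250 was 7.38-fold in Jersey and a log2 ratio of 0.84 in Kashmiri. Only the Jersey difference passed the limit. NR3C1 was lower in Jersey than in Kashmiri at D15 (log2 ratio -0.96) and higher at D250 (1.08, but 0.58 and 0.31 under the rescalings by the upper quartile and by the sum). The mineralocorticoid receptor NR3C2, which binds the same hormones, was lower than NR3C1 in every group, at 4.37, 0.383 and 2.35 FPKM in Kashmiri and 1.06, 0.0507 and 1.21 FPKM in Jersey.

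The 8 genes listed as glucocorticoid targets did not move as a group. DUSP1, SGK1 and NFKBIA were past the limit and higher in Jersey on all 3 days. NFKBIA, the inhibitor of NF-kappaB, was measured at 56.0, 120 and 71.7 FPKM in Kashmiri and at 371, 4932 and 3890 FPKM in Jersey. FKBP5, which dampens the receptor, went the other way, with 33.6, 36.6 and 27.3 FPKM in Kashmiri and 8.89, 8.76 and 16.0 FPKM in Jersey, and TSC22D3 was between 71.0 and 161 FPKM. The neutrophil marker sum was higher in Jersey on the same days, and its part in these values was not tested. HSD11B1, which makes active cortisol from cortisone, was under 1 FPKM in Kashmiri and reached 40.4 FPKM in Jersey D250, after 0.497 and 1.81 FPKM at D15 and D90. Of the chaperones that hold unliganded steroid receptors, 5 of 6 were found and none passed the limit in any comparison. HSP90AA1 ranged from 230 to 592 FPKM.

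VDR, the vitamin D receptor, differed between D15 and D90 in opposite directions in the breeds, by more than 2-fold in each. It was measured at 24.1, 5.68 and 18.2 FPKM in Kashmiri, against 13.0, 29.0 and 77.2 FPKM in Jersey. From D15 to D90 it was 4.24-fold lower in Kashmiri and 2.23-fold higher in Jersey. Neither difference passed the limit, as the log2 ratios with the pseudocount of 1 were -1.91 and 1.10. With a pseudocount of 0.1 the Kashmiri difference did. Jersey D250 over D15 passed the limit, at 5.95-fold, as did Jersey over Kashmiri at D90 (log2 ratio 2.35) and at D250 (2.09). The D250 breed difference no longer passed it under either rescaling. VDR at D250 against D15 in Kashmiri had a log2 ratio of -0.41 that became 0.60 under the rescaling by the sum. The 2 steps of vitamin D metabolism listed with it differed from each other. CYP27B1, the enzyme that activates vitamin D, was measured at 0.191, 0.704 and 0.584 FPKM in Kashmiri and at 2.77, 26.7 and 19.5 FPKM in Jersey, and was past the limit between the breeds at D90 and D250. CYP24A1, the enzyme that breaks the hormone down and a direct VDR target, was under 1 FPKM in every group. Of the 4 listed VDR targets, only SPP1 and TRPV6 reached 1 FPKM. SPP1, osteopontin, was listed at 0 in 2 groups and at up to 4072 FPKM in the others, zeros that can likewise be failed estimates, and TRPV6, a calcium channel, reached 2.65 FPKM in Kashmiri D250. VDR was lowest in Kashmiri D90, where T and NK cell and B cell markers were highest. Its r was -0.91 and -0.94 with those lists, against 0.62 with the neutrophil list. Under the rescaling by the sum, the r with the B cell list was -0.64. With the T and NK cell list, RXRA had r of -0.94, PPARD -0.80, RARA -0.78 and ESRRA -0.75. The other receptors lay between -0.41 (NR3C1) and 0.20 (THRA). The part of these cell types was not tested.

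The 3 PPARs had separate patterns. PPARG, the adipocyte and macrophage PPAR, was measured at 0.258, 6.02 and 8.81 FPKM in Kashmiri and at 5.25, 10.6 and 6.34 FPKM in Jersey. Kashmiri D15 stood alone, at a level 23.3-fold below Kashmiri D90 and 20.3-fold below Jersey D15, and the other 5 groups lay between 5.25 and 10.6 FPKM. PPARG passed the limit in Kashmiri D90 over D15, Kashmiri D250 over D15 and Jersey over Kashmiri at D15, that is, in each comparison that holds Kashmiri D15. Its level went with the macrophage markers (r = 0.85), and the macrophage sum was also lowest in Kashmiri D15, at 220 FPKM. That group weighs heavily in the r, which was not computed without it. Of the other 5 groups, Jersey D90 was highest in both. Jersey D15 had the lowest PPARG of these with a macrophage sum of 3264 FPKM, and Kashmiri D250 had the second highest with 945 FPKM. The named genes most like PPARG were LIPA, lysosomal acid lipase (r = 0.99), TES (0.99) and GPNMB, a glycoprotein of macrophages (0.98). GPNMB was measured at 3.14, 69.7 and 137 FPKM in Kashmiri and at 39.4, 231 and 59.7 FPKM in Jersey. The part of macrophages in the PPARG values was not tested.

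Genes known as PPARG targets split. FABP4, a fatty acid carrier of adipocytes and macrophages, was measured at 17.6, 154 and 125 FPKM in Kashmiri and at 216, 317 and 132 FPKM in Jersey, and was past the limit in the same 3 comparisons as PPARG. LPL, a lipase that frees fatty acids from plasma lipid, was highest where PPARG was lowest, with 290 FPKM in Kashmiri D15 and 35.7 to 78.6 FPKM elsewhere. LPIN1 had the same shape, at 51.9 FPKM in Kashmiri D15 and 3.03 to 13.7 FPKM elsewhere. Of the 8 genes listed, 6 were found, and CD36 and SCD were not among them. In Kashmiri D90 over D15, 1 was past the limit upward (FABP4) and 2 downward (LPL and LPIN1).

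PPARA, the PPAR of fatty acid oxidation, varied least of the receptors in FPKM as deposited, with 6.12, 2.26 and 6.20 FPKM in Kashmiri and 3.50, 4.05 and 3.34 FPKM in Jersey. It passed the limit in no comparison, and its highest value was 2.74-fold its lowest. Under the rescalings by the upper quartile and by the sum this span was 2.94-fold and 4.44-fold, wider than the 2.33-fold and 2.94-fold of ESRRA. PPARD, the widely expressed PPAR, was measured at 13.3, 11.5 and 17.0 FPKM in Kashmiri and at 31.9, 39.1 and 172 FPKM in Jersey. Every Jersey value was above every Kashmiri value, and Jersey D250 was 4.41-fold above Jersey D90. PPARD passed the limit in Jersey D250 over D90, Jersey D250 over D15 and Jersey over Kashmiri at D250. The call for D250 over D90 was lost under both rescalings. PPARD had a second entry in the table, between 1.02 and 2.72 FPKM in 5 groups and at 30.9 FPKM in Jersey D250, so both entries were highest in that group. Of the genes listed as targets of PPARA and PPARD, CPT1A was measured at 4.81, 17.3 and 14.9 FPKM in Kashmiri and at 35.5, 41.6 and 67.1 FPKM in Jersey. PLIN2, a coat protein of lipid droplets and the most abundant of them, was 1360 FPKM in Kashmiri D15 and lowest at 225 FPKM in Kashmiri D90. Between the breeds, 2 of the 7 tested passed the limit at D15 (CPT1A and ANGPTL4), 1 at D90 (PDK4) and 1 at D250 (CPT1A), all higher in Jersey.

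RXRA, the retinoid X receptor that pairs with VDR, the PPARs, the retinoic acid receptors and the thyroid hormone receptors, was measured at 33.7, 8.44 and 20.2 FPKM in Kashmiri and at 56.6, 64.3 and 117 FPKM in Jersey. All Jersey values lay above all Kashmiri values. The breed difference passed the limit at D90 (log2 ratio 2.93) and D250 (2.53), the latter not under either rescaling. From D15 to D90 RXRA was 3.99-fold lower in Kashmiri, which fell short of the limit with or without the pseudocount. The Kashmiri log2 ratio of D250 over D15 was -0.74 and became 0.27 under the rescaling by the sum. RXRB did not share the breed difference, with 30.4, 21.4 and 19.2 FPKM in Kashmiri and 25.4, 15.1 and 20.3 FPKM in Jersey, and RXRG was listed at 0 in every group. RXRA made up 52.5%, 28.3% and 51.3% of the summed FPKM of the 3 RXR genes in Kashmiri and 69.0%, 81.0% and 85.2% in Jersey.

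RARA, retinoic acid receptor alpha, was nearly level in Kashmiri in FPKM as deposited, at 12.7, 12.5 and 12.9 FPKM, and higher at each later day in Jersey, at 46.3, 63.8 and 123 FPKM. The Kashmiri log2 ratio of D250 over D15 was 0.02 and became 1.03 under the rescaling by the sum. Jersey was 3.65-fold higher at D15, 5.09-fold at D90 and 9.52-fold at D250, and the last 2 passed the limit under every scaling. RARB had the opposite breed difference, at 15.5, 41.2 and 12.01 FPKM in Kashmiri and 1.75, 1.19 and 1.09 FPKM in Jersey, and was past the limit and lower in Jersey on all 3 days. RARA thus made up between 20.9% and 40.9% of the summed FPKM of the 3 RAR genes in Kashmiri and between 79.0% and 86.2% in Jersey. RARG lay between 3.88 and 18.6 FPKM. Among retinoid genes, DHRS3, which returns retinal to retinol, was measured at 115, 29.7 and 43.1 FPKM in Kashmiri and at 186, 108 and 256 FPKM in Jersey, and TGM2 reached 33.4 FPKM in Jersey D250 against 3.28 FPKM in Kashmiri D250. Both passed the limit at D250. ALDH1A1, which makes retinoic acid, was higher in Kashmiri on each day, at 32.6, 14.7 and 59.1 FPKM against 14.8, 7.33 and 26.9 FPKM, without passing the limit.

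**Figure D2:**
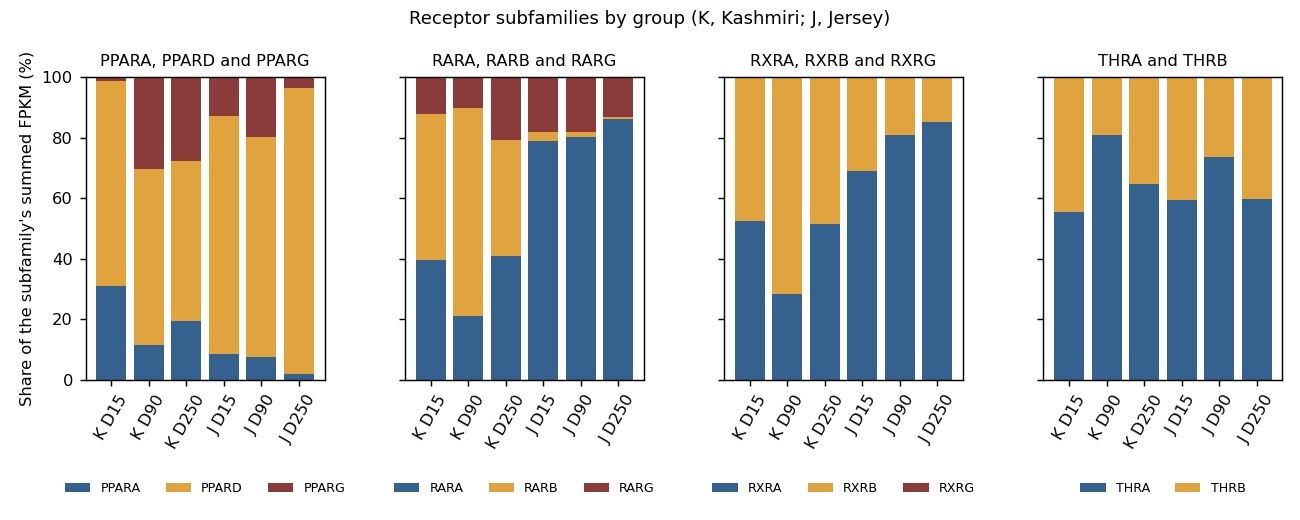
Share (%) of the summed FPKM of 4 receptor subfamilies taken by each gene, as stacked bars for the 6 groups (K, Kashmiri; J, Jersey). RARA takes 20.9% to 40.9% of the RAR bars in Kashmiri and 79.0% to 86.2% in Jersey, RXRG is at 0, and THRA takes 55.6% to 80.7% of the THR bars.

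THRA, thyroid hormone receptor alpha, had the same order of days in both breeds. It was measured at 17.8, 4.35 and 10.1 FPKM in Kashmiri and at 5.98, 1.79 and 4.21 FPKM in Jersey. In both, D90 was lowest and D15 highest, with D90 4.09-fold below D15 in Kashmiri and 3.33-fold below it in Jersey, and Jersey was below Kashmiri on each day. None of these differences passed the limit with the pseudocount of 1, and with 0.1 the Kashmiri difference of D90 from D15 did. The Kashmiri log2 ratio of D250 over D15 was -0.81 and became 0.20 under the rescaling by the sum. Its paralogue THRB had the same shape, at 14.3, 1.04 and 5.53 FPKM in Kashmiri and 4.12, 0.641 and 2.84 FPKM in Jersey, with r = 0.95 between both genes. THRA took between 55.6% and 80.7% of their sum. KLF9, a thyroid hormone and glucocorticoid target, was measured at 7.96, 1.29 and 3.52 FPKM in Kashmiri and 2.40, 0.581 and 1.68 FPKM in Jersey, again lowest at D90. THRSP, the classical thyroid hormone target of lipogenic tissue, was between 0.0394 and 1.45 FPKM. None of the 3 deiodinases was found by name.

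THRA was the receptor that went with the epithelial markers (r = 0.93), and its r with the macrophage list was -0.87. Its fold differences stood beside those of the 12 epithelial markers, whose median log2 ratio with the pseudocount of 1 from D15 to D90 was -2.01 in Kashmiri and -3.73 in Jersey. The part of the epithelial share in the THRA values was not tested. The genes most like THRA were GTF2I, KCTD2 and SELENBP1 (all r = 1.00 when rounded). SELENBP1 was measured at 233, 14.6 and 67.8 FPKM in Kashmiri and at 25.0, 2.51 and 17.5 FPKM in Jersey.

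ESRRA, the oestrogen-related receptor alpha, an orphan receptor of mitochondrial metabolism, was steady between days and different between breeds. It was measured at 28.0, 22.6 and 22.5 FPKM in Kashmiri and at 58.8, 48.3 and 69.4 FPKM in Jersey. The highest value was 3.08-fold the lowest, and Jersey lay above Kashmiri on all days without passing the limit (log2 ratios 1.07, 1.10 and 1.62). The Kashmiri differences between days were small, and all 3 of them changed sign under the rescaling by the sum. ESRRA made up at least 94.7% of the summed FPKM of the 3 ESRR genes in every group. Of its 8 listed targets, 7 were found and 1 passed the limit in any comparison, PDK4 in Jersey over Kashmiri at D90. The mitochondrial gene ATP5B was measured at 217, 345 and 233 FPKM in Kashmiri and at 219, 224 and 157 FPKM in Jersey, and SDHB ranged from 144 to 275 FPKM.

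Between the breeds, PPARD, RXRA, RARA and ESRRA were the 4 receptors whose lowest Jersey value exceeded the highest Kashmiri value, also under both rescalings. Of all 12342 names with at least 1 FPKM in a group, 15.2% had this order and 11.0% the reverse order, which no receptor had. The r of the 4 with the neutrophil list was 0.98 for RARA, 0.93 for ESRRA, 0.92 for PPARD and 0.83 for RXRA. The neutrophil marker sum had the same breed order, with 292 to 675 FPKM in Kashmiri and 4837 to 13868 FPKM in Jersey. As the 4 were singled out by this order, these r largely repeat it and are not a separate result. Of the 9 neutrophil markers found, 8, 7 and 8 passed the limit upward in Jersey over Kashmiri at D15, D90 and D250, S100A8 with 1652, 1276 and 3034 FPKM in Jersey and 36.4, 74.3 and 106 FPKM in Kashmiri. The part of neutrophils in the receptor values was not tested. The genes most like RARA were SH3BP2, DDIT4 and C10orf54, and those most like ESRRA were RAB20, RAC1 and IFITM3.

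**Figure D3:**
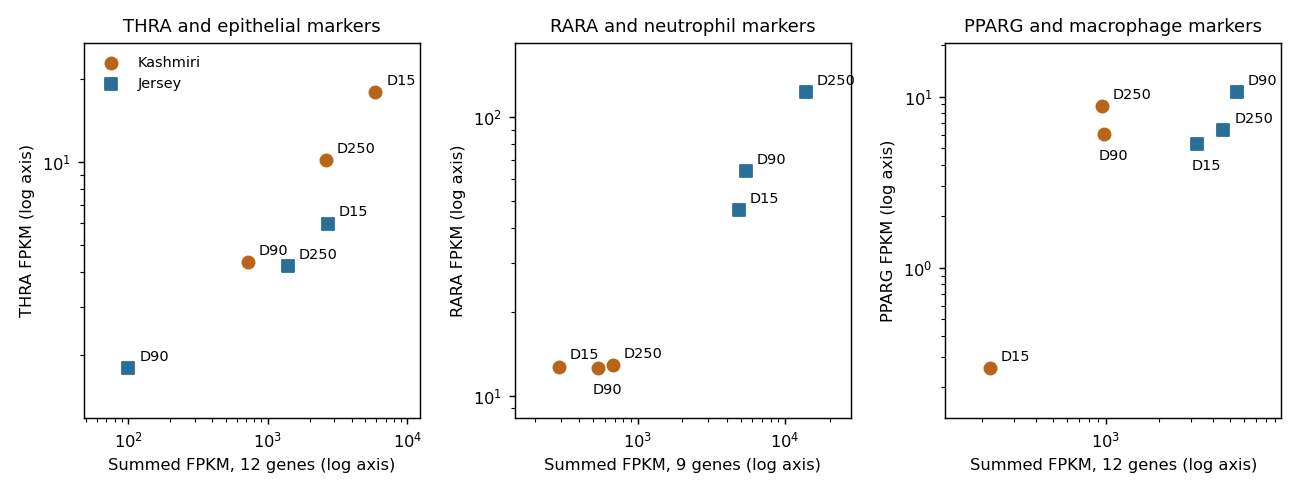
FPKM of THRA, RARA and PPARG (log axis) against the summed FPKM of the epithelial, neutrophil and macrophage markers (log axis), with 1 labelled point per group, circles for Kashmiri and squares for Jersey. THRA is lowest where the epithelial sum is lowest, the 3 Jersey points of RARA stand apart from the 3 Kashmiri points, and PPARG in Kashmiri D15 lies alone at the lower left.

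**Figure D4:**
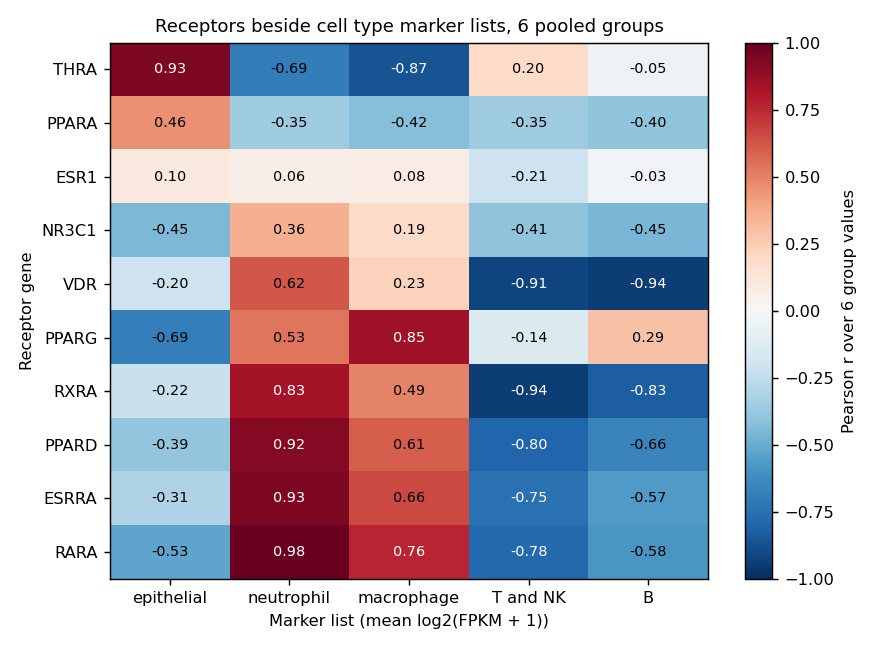
Pearson r over the 6 group values between each receptor (rows) and the mean log2(FPKM + 1) of each marker list (columns). The 4 receptors at the bottom of the map, RXRA, PPARD, ESRRA and RARA, have r of 0.83 to 0.98 with the neutrophil list, THRA has 0.93 with the epithelial list, and ESR1 has between -0.21 and 0.10 with the 5 lists shown.

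Counted by breed, Jersey over Kashmiri gave 1 receptor past the limit at D15 (PPARG), 3 at D90 (VDR, RXRA and RARA) and 4 at D250 (VDR, PPARD, RXRA and RARA), all higher in Jersey. Over all names, 6.45%, 6.58% and 10.9% were higher past the limit and 2.12%, 5.17% and 1.37% lower. The median log2 ratio of the 10 receptors was 0.44, 0.89 and 1.31, against -0.13, -0.03 and -0.10 over all names tested. At D250, the count was 2 (PPARD and RARA) under either rescaling, and the median over all names shifted by -0.42 and -0.64.

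**Figure D5:**
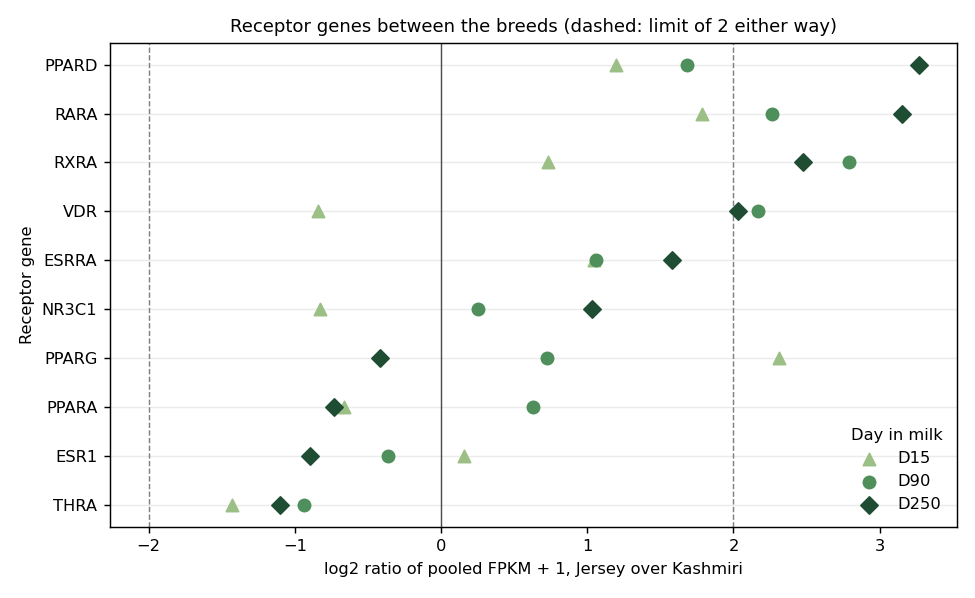
log2 ratio of FPKM + 1 of Jersey over Kashmiri for each receptor at D15 (triangles), D90 (circles) and D250 (diamonds), with dashed lines at the limit of 2 either way. PPARD, RARA, RXRA and ESRRA lie to the right of 0 on every day, and THRA lies to the left on every day. VDR and NR3C1 pass from left to right after D15.

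Between days in Kashmiri, 1 receptor passed the limit in D90 over D15 (PPARG), 1 in D250 over D90 (ESR1) and 2 in D250 over D15 (ESR1 and PPARG), all upward. The background upward was 2.34%, 0.859% and 1.85% of names, and downward it was 5.16%, 1.12% and 2.20%. By sign alone, 7 of the 10 receptors were lower at D90 than at D15, and 9 of 10 were higher at D250 than at D90. Of the former, PPARD, RARA and ESRRA changed sign under the rescaling by the sum. Over all names, 49.8% and 52.3% were higher in these comparisons. In Jersey, 7 of the 10 receptors were higher at D90 than at D15 and 8 of 10 were higher at D250 than at D90, against 47.6% and 59.4% of all names. There, no receptor passed the limit in D90 over D15, 1 did in D250 over D90 (PPARD) and 3 did in D250 over D15 (NR3C1, VDR and PPARD), again all upward. The Jersey background was 2.98%, 3.72% and 9.17% upward and 3.78%, 0.466% and 3.42% downward. The comparisons within a breed share groups with each other and are not independent.

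Among the 37 other nuclear receptors found of 38 listed, 20 reached 1 FPKM in some group. The 10 receptors made up between 11.2% (Kashmiri D90) and 45.9% (Jersey D250) of the summed FPKM of all 47 receptors found. The other receptor with the highest mean over the groups was NR1D2, a repressor of the circadian clock, at 40.7, 346 and 293 FPKM in Kashmiri and 51.9, 305 and 389 FPKM in Jersey. Its entry was joined with another identifier, and at D15 NR1H2, a liver X receptor, was higher in both breeds, at 70.1 and 91.8 FPKM. NR1H3, the liver X receptor of macrophages, was measured at 6.78, 17.8 and 7.85 FPKM in Kashmiri and at 32.9, 43.1 and 25.7 FPKM in Jersey. All 12 coactivators and corepressors were found, 10 of them reaching 1 FPKM. Of these, 4 passed the limit upward in Jersey D250 over D15 (NCOA2, CREBBP, EP300 and NRIP1), against 9.17% of all names. In Jersey D90 over D15, Jersey D250 over D90 and Jersey over Kashmiri at D250, 2, 1 and 3 passed it upward. The shares of all names there were 2.98%, 3.72% and 10.9%. None passed it between days in Kashmiri, or between the breeds at D15 and D90. NRIP1, a corepressor of several of the receptors, was measured at 0.943, 4.76 and 36.1 FPKM in Jersey and at 1.61, 1.16 and 3.92 FPKM in Kashmiri. NCOR1 was between 6.37 and 20.1 FPKM, and the PPAR coactivators PPARGC1A and PPARGC1B were under 1 FPKM in every group.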

How the data were processed

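RNA of cells captured from milk was sequenced from stranded mRNA libraries. The authors used Trimmomatic for trimming, TopHat with Bowtie for alignment against UMD3.1, and Cufflinks with Cuffdiff for quantification. They deposited FPKM, with 1 pooled value per gene for every combination of breed and day. The columns named Local were taken as Kashmiri. The table held 61264 entries, of which 25121 carried a name. Where entries repeated a name, that with the largest mean over the groups was kept, and names joined by commas were looked up by each part.

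The receptors, gene lists and limits were chosen with earlier results of these data known. Named genes were the 10 receptors, up to 4 genes of each list with the highest mean FPKM, a preset list of further genes, and the 3 named genes most like each receptor with at least 1 FPKM in every group. THRB, RARG, RXRG, NR3C2, ESR2, TRPV6, ANGPTL4, the ESRR genes and NRIP1 were added after their values were seen. Alternatives were a log2 limit of 1, a pseudocount of 0.1, no FPKM limit, repeated entries summed, and rescaling by the upper quartile or by the sum without milk protein genes. The counting code was tested on simulated data. Calculations were run in Python 3.11.15 (pandas 2.3.3, numpy 2.4.6) and plots drawn with matplotlib 3.10.9.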

Additional observations from a re-analysis of the deposited data

Results flagged for a closer look

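VDR went one way in Kashmiri and the opposite way in Jersey from D15 to D90. Its log2 ratio was -2.09 in Kashmiri and 1.16 in Jersey, so that Jersey minus Kashmiri was 3.24. These ratios carry no pseudocount, and with 1 FPKM added neither change passed the limit. Each breed has 1 pooled value per day, so the difference was not tested. T and NK cell markers summed to 422 FPKM in Kashmiri D15 and 1719 FPKM in Kashmiri D90, and to 328 and 242 FPKM in Jersey. B cell markers summed to 17.2 and 80.4 FPKM in Kashmiri and to 30.1 and 17.1 FPKM in Jersey. The part of these cells in the VDR values was not tested.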

How the results depend on the processing

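No value per cow was used, so leaving out a replicate could not be run, and the precision of a pooled value cannot be given. No paired analysis was possible because each group had 1 pooled value. Of 74 recomputed counts, 58 stayed within 1.5 times the reported count. With a log2 limit of 1, the receptors past the limit were 5 in Kashmiri D90 over D15 and 5 in D250 over D90, 3, 4 and 6 in Jersey D90 over D15, D250 over D90 and D250 over D15, and 5, 5 and 7 in Jersey over Kashmiri at D15, D90 and D250. With a pseudocount of 0.1 they were 3 in Kashmiri D90 over D15 (PPARG, with VDR and THRA lower) and 2 in Jersey D250 over D90. Rescaling by the upper quartile gave 0 in Jersey D250 over D90 and 2 between the breeds at D250. Rescaling by the sum without milk protein genes gave 2 in Kashmiri D250 over D90, 0 in Jersey D250 over D90, and 2 in the breed comparisons at D15 and at D250. The share of all names past the limit was not counted under these settings, so the counts have no background there. The cause of these moves in the counts was not tested. The rescaling by the sum moved the median over all names by up to 0.85 on the log2 scale. Of the 90 single ratios, 82 kept their sign under it, 88 under the upper quartile and 90 with a pseudocount of 1. The count of receptors with all Jersey values above all Kashmiri values, whose rescalings were added after the data were seen, was 4 under both.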
